A study of Mus musculus with 16 samples.

Results

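The 10 genes described here encode the folding machinery of the endoplasmic reticulum (ER) and parts of the response that controls it: Hspa5, Hsp90b1, Calr, Pdia3, Pdia4, Pdia6, Xbp1, Dnajb9, Herpud1 and Sil1. They were taken by name from the 12393 genes that have a probe set annotated to them alone, and each was measured by its probe set of highest mean signal. They came to 20 probe sets in all, since 7 of the 10 genes had more than 1, and the remaining probe sets served as a check. The cells were cultures of mouse adult neural stem cells, and total RNA of 16 samples was hybridised to Affymetrix arrays, 1 array a sample and 2 arrays in each of 8 groups. All groups carried the Tlx(f/Z) genotype at the locus of Tlx (Nr2e1), an orphan nuclear receptor that neural stem cells need for self-renewal. The Tlx(f/Z;CreER) cultures are called CreER below and the Tlx(f/Z) cultures no Cre. CreER joins the Cre recombinase to a hormone-binding domain of the estrogen receptor, and 4-hydroxytamoxifen (4OHT) switches it on. The CreER groups were 4OHT at 60 h, vehicle at 60 h, 4OHT at 36 h and vehicle at 36 h, and the no Cre groups were 4OHT at 60 h, vehicle at 60 h, 4OHT at 36 h and vehicle at 36 h. The labels do not give the promoter behind CreER, the age of the animals or how many animals the cultures came from, and every p-value here therefore reflects the spread among these 16 samples alone, which may be technical.

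The ER lumen folds secreted and membrane proteins with an Hsp70 (Hspa5, also called BiP), an Hsp90 (Hsp90b1), lectin chaperones and protein disulfide isomerases. When unfolded proteins build up, the sensors Ire1, Atf6 and Perk signal to the nucleus: Ire1 splices the Xbp1 mRNA into the form that encodes an active transcription factor, cleaved Atf6 acts on chaperone promoters, and Perk slows translation and raises Atf4 and its targets. Array probe sets read the total Xbp1 transcript and do not tell the spliced form from the unspliced one.

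The median signal of an array ran between 92.2 and 132.6, a ratio of 1.44, in the values as deposited. Each comparison is therefore given as deposited and again after quantile normalization, which gives every array the same distribution of signals. Nr2e1 itself was not analysed here, as 0 probe sets are listed under its symbol. Signal of Esr1, the estrogen receptor gene, was between 279 and 444 in CreER arrays and between 11.7 and 32.2 in no Cre arrays, which separates the genotypes as labelled. Of 13 listed neural stem cell markers 10 passed the filter on low signal, and Nes, Sox2, Vim and Fabp7 had signals of at least 1239 in every array. Of the markers of other cells, 1 of 10 microglial, 1 of 9 endothelial and mural, 0 of 7 fibroblast, 3 of 9 neuronal and 3 of 6 oligodendrocyte genes passed it. Fewer cells of a type and less RNA per cell cannot be told apart in these bulk samples.

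All 10 genes passed the filter, a mean log2(signal + 16) of at least 6.07, with 7619 genes tested in all. Sil1 passed only through the no Cre arrays. Groups called apart or overlapping below hold 2 arrays each, and such groups can easily be apart with no difference between them. The share of all genes with groups apart was not counted, so these words describe values and carry no test.

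**Figure D1:**
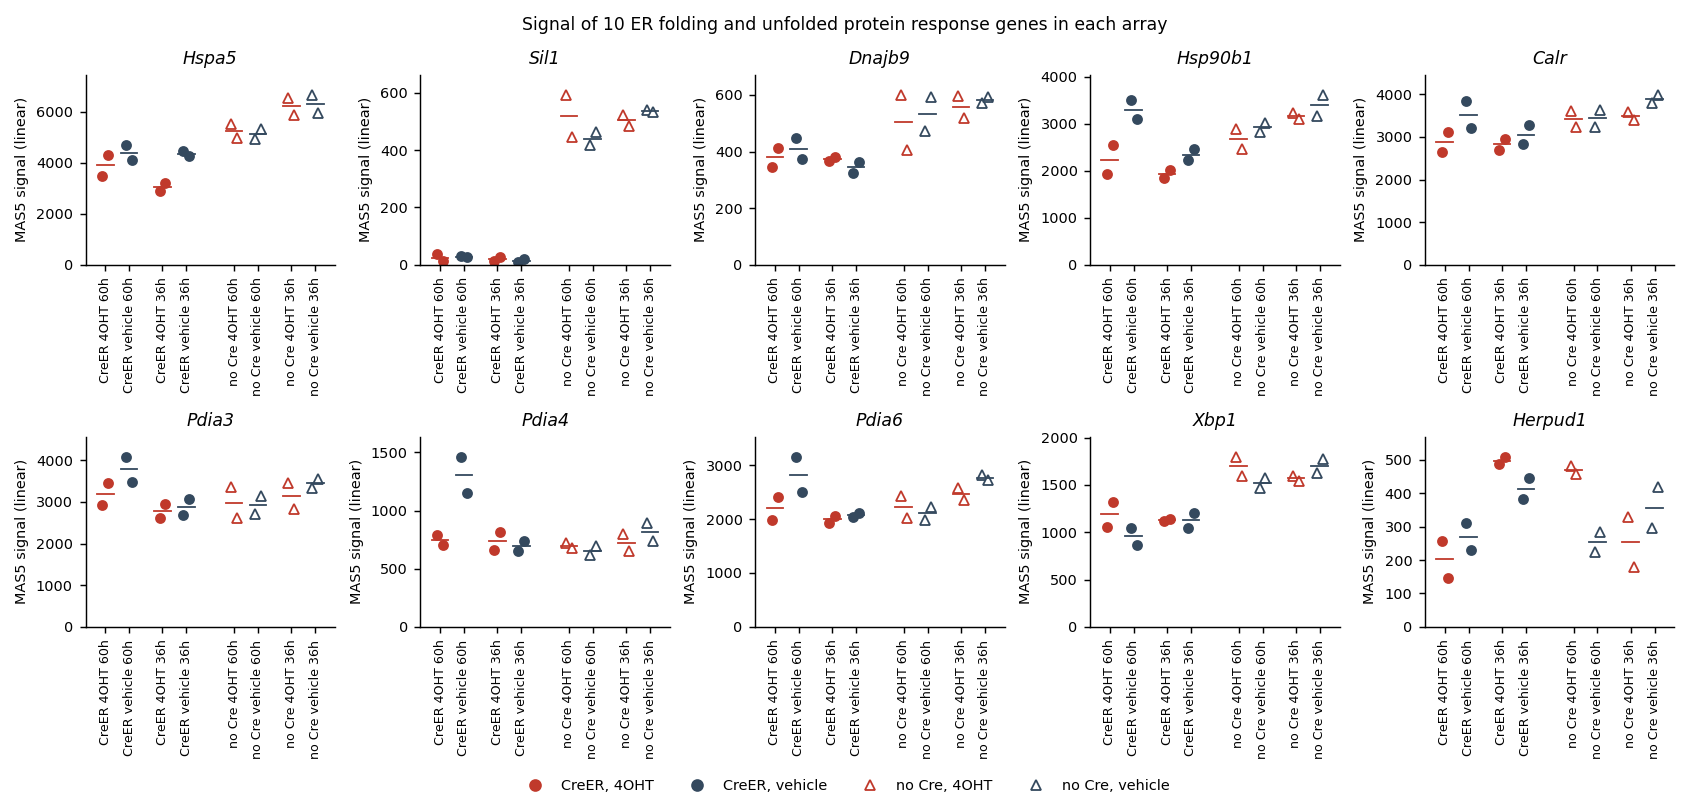
MAS5 signal on a linear axis from 0 for each of the 10 genes in all 16 arrays, with points for arrays and a bar for the mean of each group of 2. Hspa5 and Xbp1 lie lower in all 8 CreER arrays than in all 8 no Cre arrays, Sil1 is near the bottom of the scale in all CreER arrays, and Pdia4 stands highest in both CreER vehicle arrays at 60 h.

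Promoter windows were examined for the elements through which the response acts, as a description of the genes. The windows come from RefSeq on GRCm38.p6 and hold 250 bases before and 50 bases from the start of the gene, 300 in all, and 9 of the 10 genes (all but Sil1) were looked up in them. The ER stress response element (ERSE, CCAAT and CCACG with any 9 bases between them, on either strand) was present in 4 of the 9, Calr, Hsp90b1, Hspa5 and Pdia6, and in 0.119% of all 32851 windows. The related element ERSE-II (ATTGG and CCACG with any 1 base between them, on either strand) was present in Herpud1 and in 0.0365% of all windows. Windows of 6 genes on which the results turn are printed below in lower case, read 5′ to 3′ along the gene's strand, with ERSE and ERSE-II matches in capitals. They are chr2:34771840-34772139 on the plus strand (Hspa5), chr10:86705395-86705694 on the minus strand (Hsp90b1), chr12:17266339-17266638 on the plus strand (Pdia6), chr8:94386179-94386478 on the plus strand (Herpud1), chr6:47813463-47813762 on the minus strand (Pdia4) and chr11:5520391-5520690 on the plus strand (Xbp1).
Hspa5: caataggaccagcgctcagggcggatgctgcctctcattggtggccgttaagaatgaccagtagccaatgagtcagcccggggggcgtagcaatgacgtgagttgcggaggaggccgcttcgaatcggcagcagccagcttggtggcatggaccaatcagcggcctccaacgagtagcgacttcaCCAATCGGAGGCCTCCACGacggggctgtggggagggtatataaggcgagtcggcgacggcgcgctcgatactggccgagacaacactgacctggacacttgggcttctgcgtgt
Hsp90b1: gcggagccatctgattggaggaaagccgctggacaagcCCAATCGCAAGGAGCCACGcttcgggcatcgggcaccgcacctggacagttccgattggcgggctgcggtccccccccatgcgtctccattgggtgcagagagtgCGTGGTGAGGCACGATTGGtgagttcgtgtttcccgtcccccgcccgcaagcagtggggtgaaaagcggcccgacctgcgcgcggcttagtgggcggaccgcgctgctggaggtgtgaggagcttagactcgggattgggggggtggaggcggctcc
Pdia6: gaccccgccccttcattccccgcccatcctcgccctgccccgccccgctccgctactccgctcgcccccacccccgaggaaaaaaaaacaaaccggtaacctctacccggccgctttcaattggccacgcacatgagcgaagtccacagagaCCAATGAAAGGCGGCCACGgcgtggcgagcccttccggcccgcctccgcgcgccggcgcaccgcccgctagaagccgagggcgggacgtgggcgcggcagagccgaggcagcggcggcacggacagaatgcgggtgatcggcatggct
Herpud1: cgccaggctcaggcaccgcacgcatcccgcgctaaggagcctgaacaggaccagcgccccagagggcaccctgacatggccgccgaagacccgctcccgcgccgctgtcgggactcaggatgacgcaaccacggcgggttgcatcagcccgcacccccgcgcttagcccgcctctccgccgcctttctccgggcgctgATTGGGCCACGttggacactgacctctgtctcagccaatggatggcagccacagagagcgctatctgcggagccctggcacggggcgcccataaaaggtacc
Pdia4: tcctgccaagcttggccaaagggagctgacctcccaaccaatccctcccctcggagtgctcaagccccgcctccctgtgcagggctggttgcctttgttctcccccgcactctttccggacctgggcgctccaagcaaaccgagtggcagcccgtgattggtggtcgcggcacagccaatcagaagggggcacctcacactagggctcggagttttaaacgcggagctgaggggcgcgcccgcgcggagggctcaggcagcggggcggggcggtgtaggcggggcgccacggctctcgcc
Xbp1: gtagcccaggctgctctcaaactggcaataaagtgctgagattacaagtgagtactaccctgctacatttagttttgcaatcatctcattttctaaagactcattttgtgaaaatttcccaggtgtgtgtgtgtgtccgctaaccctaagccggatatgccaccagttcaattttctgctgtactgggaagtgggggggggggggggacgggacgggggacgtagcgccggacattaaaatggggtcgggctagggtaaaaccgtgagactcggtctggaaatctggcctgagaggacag
The Hsp90b1 window holds 2 ERSE matches, 1 on each strand. The Pdia4 and Xbp1 windows hold neither element, so no base of theirs is in capitals. The ERSE spacing with a shorter end (CCAAT and CC with any 9 bases between them, on either strand, which every ERSE also matches) was present in 7 of the 9 genes, Pdia4 among them, and in 4.24% of all windows. The Xbp1 window was the single one of the 9 without a CCAAT box (CCAAT on either strand, part of all these elements), which 37.4% of all windows hold. The UPR element TGACGTGG, the cAMP response element TGACGTCA and the C/EBP-ATF element TGATGNAAT, each searched on both strands, were present in 0 of the 9 genes and in 0.676%, 1.79% and 0.965% of all windows. A match is a run of letters and does not show a factor bound there. The genes were taken by name as parts of this response, so their shares beside those of all windows carry no test. Whether the elements bear on the changes described below was not tested.

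The first question was how the genes responded to 4OHT in CreER cultures, where the drug activates the recombinase. Over both times, Hsp90b1 and Hspa5 were lower after 4OHT, and after quantile normalization the lectin chaperone Calr and all 3 disulfide isomerases were lower too, while Xbp1 was higher. Of those further calls, that of Pdia3 was lost without 5 of the 8 arrays and that of Pdia4 without 6, and those of Calr, Pdia6 and Xbp1 held without each. As deposited and by the probe sets used, 0 of the 10 genes rose and 2 fell at an adjusted p under 0.05 in limma. Of all tested genes, 12.4% were called in either direction. After quantile normalization 1 rose and 6 fell, against 38.8% of all genes. The median change of the 10 genes was -0.17 on the log2 scale as deposited and -0.12 after quantile normalization, beside medians of -0.07 and 0.00 over all genes tested.

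The responses at the later and the earlier time differed in which genes were called. At 60 h, 0 genes rose and 2 fell as deposited (7% of all genes were called), and 1 rose and 5 fell after quantile normalization (29.7%). At 36 h, 0 rose and 1 fell as deposited (2.61%), and 0 rose and 2 fell after quantile normalization (21.4%). The isomerase Pdia4 was the lowest of the 10 at 60 h and Hspa5 the lowest at 36 h.

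Hspa5 is the ER Hsp70, which binds unfolded chains and holds the 3 sensors inactive. In CreER cultures at 60 h its signal was 3479 and 4315 after 4OHT, against 4689 and 4116 with vehicle. At 36 h it was 2895 and 3209 after 4OHT, against 4467 and 4264 with vehicle. The groups overlapped at 60 h and were apart at 36 h, where both 4OHT arrays were the lowest of all 16. The change at 36 h was -0.52 on the log2 scale (SE 0.14, adjusted p = 0.0208, limma) and that at 60 h was -0.18 (SE 0.14, adjusted p = 0.529). As deposited, the call at 36 h was lost without any 1 of its 4 arrays (adjusted p between 0.115 and 0.457). After quantile normalization the changes were -0.51 at 36 h (adjusted p = 0.000107) and -0.11 at 60 h (adjusted p = 0.223), and the call at 36 h held without each of the 4 arrays. With the actin 5′ to 3′ ratio, a measure of RNA quality, as a covariate on the deposited values, the change at 36 h was -0.40 and not called (adjusted p = 0.0831). The difference of the 2 responses, 60 h minus 36 h, was 0.33 (SE 0.20) as deposited and not called, and 0.40 after quantile normalization (adjusted p = 0.0371), a call lost without 7 of the 8 arrays it rests on. The second Hspa5 probe set changed by -0.14 (SE 0.13, adjusted p = 0.557) over both times, against -0.35 (SE 0.10, adjusted p = 0.00939) for the probe set used, whose call as deposited was lost without replicate 1 of 4OHT at 36 h (-0.31, adjusted p = 0.0961) or of 4OHT at 60 h (-0.27, adjusted p = 0.0909).

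Dnajb9, a J-domain partner of Hspa5 that also restrains Ire1, and Sil1, the nucleotide exchange factor of Hspa5, were not called after 4OHT. Dnajb9 signal at 60 h was 347 and 413 after 4OHT and 447 and 373 with vehicle, and at 36 h it was 367 and 382 after 4OHT and 324 and 364 with vehicle. The groups overlapped at 60 h and were narrowly apart at 36 h, and its change over both times was 0.01 (95% interval -0.26 to 0.27, adjusted p = 0.982) as deposited. Sil1 signal in CreER arrays lay between 9.65 and 36.0 under either treatment. These values were all below the filter's signal of 51.1, so Sil1 counts among the 10 genes there without a measurable response.

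Hsp90b1, the ER Hsp90 (also called Grp94) that finishes the folding of integrins and Toll-like receptors, had lower signal after 4OHT at both times. At 60 h its signal was 1938 and 2543 after 4OHT, against 3509 and 3103 with vehicle. At 36 h it was 1855 and 2017 after 4OHT, against 2226 and 2457 with vehicle. The groups did not overlap at either time. The change was -0.57 at 60 h (SE 0.16, adjusted p = 0.011) and -0.27 at 36 h (SE 0.16, adjusted p = 0.52) as deposited, and -0.46 (adjusted p = 7.74e-05) and -0.22 (adjusted p = 0.0214) after quantile normalization. As deposited, the 60 h call was lost without replicate 1 of vehicle (-0.48, adjusted p = 0.121) or of 4OHT (-0.37, adjusted p = 0.31). After quantile normalization it held without each of the 4 arrays, whereas the 36 h call held without 1 of the 4. Over both times the change was -0.42 (SE 0.11, adjusted p = 0.00426), a call lost as deposited without replicate 1 of 4OHT at 36 h (-0.39, adjusted p = 0.0515) or at 60 h (-0.32, adjusted p = 0.0667). The second Hsp90b1 probe set changed by -0.53 at 60 h (SE 0.18, adjusted p = 0.047) as deposited. It was not called at 36 h (-0.15, SE 0.18, adjusted p = 0.848) or over both times (-0.34, SE 0.13, adjusted p = 0.0606). Its groups at 36 h overlapped, with 1018 and 1187 after 4OHT and 1102 and 1352 with vehicle.

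Calr, calreticulin, is the soluble lectin chaperone that binds monoglucosylated glycoproteins. Its signal at 60 h was 2655 and 3109 after 4OHT, against 3849 and 3198 with vehicle, groups that did not overlap. At 36 h it was 2702 and 2963 after 4OHT and 2834 and 3273 with vehicle, which overlapped. The change at 60 h was -0.29 (SE 0.16, adjusted p = 0.291) as deposited and -0.21 (adjusted p = 0.00219) after quantile normalization. The other 2 Calr probe sets changed by -0.23 and -0.30 at 60 h as deposited, neither past the threshold.

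The disulfide isomerases form and rearrange disulfide bonds, and Pdia3 does so on glycoproteins handed over by calreticulin. Pdia4 signal at 60 h was 791 and 707 after 4OHT, against 1459 and 1146 with vehicle. Both vehicle arrays exceeded every one of the other 14 arrays, which lay between 614 and 892. At 36 h Pdia4 was 665 and 814 after 4OHT and 653 and 736 with vehicle, which overlapped. Its change at 60 h was -0.78 (SE 0.19, adjusted p = 0.00174) as deposited, at percentile 1.33 of the changes of all tested genes, and -0.66 (adjusted p = 0.0013) after quantile normalization. Without replicate 1 of the vehicle arrays it was -0.61 (adjusted p = 0.0817) as deposited, and after quantile normalization the call held without each of the 4 arrays. The difference of the responses, 60 h minus 36 h, was -0.86 (SE 0.27, adjusted p = 0.263) as deposited and -0.79 (adjusted p = 0.0377) after quantile normalization, where the call was lost without 6 of the 8 arrays.

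Pdia6, which also acts on the sensor Ire1, had signals of 1985 and 2414 after 4OHT at 60 h, against 3148 and 2492 with vehicle. At 36 h it had 1924 and 2059 after 4OHT and 2046 and 2109 with vehicle. The groups were apart at 60 h, by a narrow margin, and overlapped at 36 h. Its change at 60 h was -0.35 (SE 0.17, adjusted p = 0.204) as deposited and -0.25 (adjusted p = 0.00173) after quantile normalization. Pdia3 had 2920 and 3455 after 4OHT at 60 h, against 4073 and 3482 with vehicle, and it had 2622 and 2949 after 4OHT at 36 h, against 2693 and 3074 with vehicle. Its groups also overlapped at 36 h alone, and its change at 60 h was -0.24 (SE 0.16, adjusted p = 0.401) as deposited and -0.17 (adjusted p = 0.0312) after quantile normalization, a call that held without 1 of its 4 arrays. The second probe sets of Pdia4 and Pdia6 did not pass the filter.

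Xbp1 encodes the transcription factor of the Ire1 branch. Its signal at 60 h was 1059 and 1321 after 4OHT, against 1044 and 867 with vehicle. At 36 h it was 1119 and 1139 after 4OHT, against 1044 and 1208 with vehicle. The groups were apart at 60 h, and at 36 h the vehicle values lay on either side of the 4OHT values. The change at 60 h was 0.31 (SE 0.18, adjusted p = 0.334) as deposited and 0.43 (adjusted p = 0.000115) after quantile normalization, where it held without each of the 4 arrays. The other 3 Xbp1 probe sets changed by 0.43, 0.19 and -0.15 at 60 h as deposited, none past the threshold. The difference of the responses, 60 h minus 36 h, was 0.30 (SE 0.25) as deposited and 0.36 (adjusted p = 0.047) after quantile normalization, a call lost without any 1 of its 8 arrays.

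Herpud1 is a membrane protein of ER-associated degradation, which returns misfolded proteins to the cytosol. Its signal at 60 h was 258 and 148 after 4OHT and 310 and 230 with vehicle, and at 36 h it was 487 and 508 after 4OHT, against 381 and 445 with vehicle. The groups overlapped at 60 h and were apart at 36 h. Its change was -0.42 at 60 h (SE 0.19, adjusted p = 0.187) and 0.26 at 36 h (SE 0.19, adjusted p = 0.649) as deposited. The second Herpud1 probe set went the other way at 60 h, with a change of 0.60 (SE 0.20, adjusted p = 0.043), and the same way at 36 h (0.29, SE 0.20, adjusted p = 0.618). Over both times it was called higher as deposited in limma (0.45, SE 0.14, adjusted p = 0.0207), against -0.08 (adjusted p = 0.782) for the probe set used. The 2 probe sets thus do not give a common direction at 60 h or over both times.

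Between the 2 times, 0 of the 10 genes differed in their 4OHT response as deposited, where 0.197% of all genes did, and 2 were higher and 1 lower at 60 h minus 36 h after quantile normalization, where 2.19% did. These were Hspa5, Xbp1 and Pdia4, with the values given above.

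**Figure D2:**
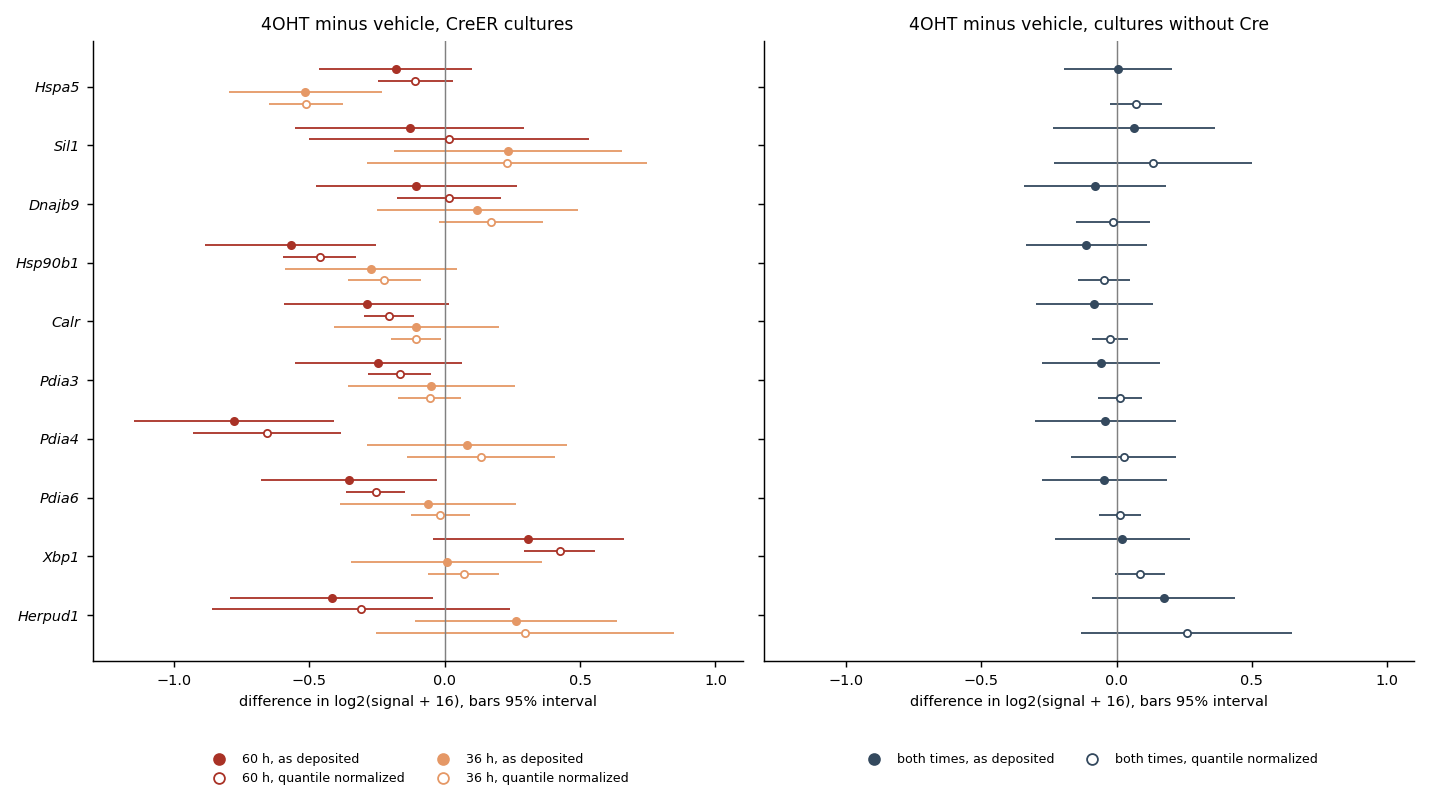
Difference in log2(signal + 16) between 4OHT and vehicle for each gene, in CreER cultures at 60 h and 36 h on the left and in cultures without Cre over both times on the right. Filled points are values as deposited, open points are quantile normalized, and bars are 95% intervals from limma. Pdia4 lies lowest at 60 h, Hspa5 lowest at 36 h, Xbp1 is to the right of 0 at 60 h, and the intervals of all 10 genes without Cre include 0.

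Cultures without Cre show what 4OHT did where there was no recombinase to activate. As deposited 0 of the 10 genes were called in these cultures, where 0.0656% of all genes were, and after quantile normalization 0 were called, where 0.814% were. Hspa5 had 5528 and 4965 after 4OHT at 60 h and 4928 and 5326 with vehicle, and 6542 and 5884 after 4OHT at 36 h and 6666 and 5958 with vehicle. The groups overlapped at both times, and the change over both times was 0.00 (95% interval -0.19 to 0.20). Hsp90b1 had 2899 and 2475 after 4OHT at 60 h and 2826 and 3028 with vehicle, with a change over both times of -0.11 (95% interval -0.34 to 0.11). Pdia4 had 717 and 680 after 4OHT at 60 h and 614 and 698 with vehicle, and its change over both times was -0.04 (95% interval -0.30 to 0.22). The other changes over both times were -0.08 for Dnajb9 and Calr, -0.06 for Pdia3, -0.05 for Pdia6, 0.02 for Xbp1, 0.06 for Sil1 and 0.17 for Herpud1. Within a time some groups of 2 were apart. At 60 h Xbp1 had 1794 and 1595 after 4OHT, against 1471 and 1572 with vehicle, and Herpud1 was also higher after 4OHT. At 36 h Xbp1 was lower, with 1595 and 1542 after 4OHT, against 1621 and 1769 with vehicle, as were Calr, Pdia6 and Sil1. These differences within a time were not tested in cultures without Cre.

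The difference of the 4OHT response between CreER and no Cre cultures tests the interaction itself. As deposited 0 of the 10 genes were called (2.34% of all genes), and after quantile normalization 0 were higher and 3 lower (19.2%). The 3 were Hspa5 at -0.38 (adjusted p = 0.00086), Hsp90b1 at -0.30 (adjusted p = 0.00484) and Calr at -0.13 (adjusted p = 0.0442). The calls of Hspa5 and Hsp90b1 held without each of the 16 arrays, and that of Calr held without 4 of them. As deposited the difference was -0.35 for Hspa5 (SE 0.14, adjusted p = 0.251) and -0.31 for Hsp90b1 (SE 0.16, adjusted p = 0.474). The second Hspa5 probe set differed by -0.02 as deposited (SE 0.18, adjusted p = 0.993). The second Hsp90b1 probe set changed by -0.34 (SE 0.13) in CreER cultures and by -0.17 (SE 0.13) in cultures without Cre over both times, as deposited. Pdia4 had a difference of -0.29 (adjusted p = 0.132) and Xbp1 of 0.16 (adjusted p = 0.0779) after quantile normalization.

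CreER and no Cre cultures were also compared under vehicle. Hspa5, its partners Dnajb9 and Sil1, and Xbp1 were lower in CreER cultures, and Pdia4 was higher. Pdia3 (0.06 as deposited, adjusted p = 0.73) and Pdia6 (0.00, adjusted p = 0.997) were called higher after quantile normalization alone, at 0.16 (adjusted p = 0.00212) and 0.11 (adjusted p = 0.0199), and Calr was not called (-0.16, adjusted p = 0.267). The Pdia6 call held without 4 of the 8 arrays. Leaving out Sil1, whose place among the tested genes rests on the no Cre arrays, 1 of 9 genes was higher and 3 were lower as deposited, where 34.5% of all genes were called. After quantile normalization 3 were higher and 3 lower, where 55.3% were. A large share of all genes was called in this comparison, and the counts of the 10 genes are to be read against it.

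Hspa5 ran between 2895 and 4689 with a median of 4190 in the 8 CreER arrays, and between 4928 and 6666 with a median of 5706 in the 8 no Cre arrays. The 2 genotypes did not overlap under any treatment or time. Under vehicle the difference was -0.37 (SE 0.10, adjusted p = 0.00134) as deposited and -0.31 (adjusted p = 3.91e-05) after quantile normalization, and the second probe set gave -0.78 (SE 0.13, adjusted p = 1.15e-08). Dnajb9 under vehicle was 447 and 373 in CreER and 471 and 592 in no Cre arrays at 60 h, and 324 and 364 in CreER and 571 and 591 in no Cre arrays at 36 h. All 4 CreER vehicle arrays were below all 4 no Cre vehicle arrays, with a difference of -0.55 (SE 0.13, adjusted p = 0.000323). With the actin ratio described below as a covariate, neither was called: Hspa5 differed by -0.18 (adjusted p = 0.401) and Dnajb9 by -0.33 (adjusted p = 0.212). Hsp90b1 differed by -0.18 (SE 0.11, adjusted p = 0.223), while its second probe set was lower, with -0.38 (SE 0.13, adjusted p = 0.0114).

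Sil1 signal was between 9.65 and 29.1 in the 4 CreER vehicle arrays and between 419 and 540 in the 4 no Cre vehicle arrays. In all 8 CreER arrays it stood between the 18.0 and the 36.8 percentile of the array's signals, and in all 8 no Cre arrays between the 73.0 and the 77.2 percentile. All CreER values lay below the filter's signal of 51.1, so a fold is given against that signal: under vehicle Sil1 was at least 9.55-fold lower in CreER cultures. As Sil1 passed the filter through the no Cre arrays alone, this is a description with no test. Loss of SIL1 in humans causes Marinesco-Sjögren syndrome, and mutant Sil1 underlies the woozy mouse, which loses Purkinje cells.

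Xbp1 ran between 867 and 1321 in the 8 CreER arrays and between 1471 and 1794 in the 8 no Cre arrays, with no overlap. The difference under vehicle was -0.63 (SE 0.13, adjusted p = 8.85e-06) as deposited and -0.48 (adjusted p = 2.43e-07) after quantile normalization. Of the other 3 Xbp1 probe sets, 2 were lower past the threshold (-0.79 and -0.42) and 1 was not called (-0.02). After adjustment for the actin ratio, the difference of Xbp1 was -0.49 (adjusted p = 0.0192). Herpud1 was not called (0.15, SE 0.13, adjusted p = 0.429), and its second probe set was lower, with -0.60 (SE 0.14, adjusted p = 0.000195). Pdia4 was higher in CreER cultures by 0.37 (SE 0.13, adjusted p = 0.0184), with the difference on the 60 h side. At 60 h it was 1459 and 1146 in CreER and 614 and 698 in no Cre arrays, and at 36 h it was 653 and 736 in CreER and 892 and 738 in no Cre arrays. As deposited this call was lost without replicate 2 of CreER vehicle at 36 h (0.33, adjusted p = 0.0711), replicate 1 of CreER vehicle at 60 h (0.29, adjusted p = 0.0842), replicate 2 of no Cre vehicle at 36 h (0.30, adjusted p = 0.143) or replicate 1 of no Cre vehicle at 60 h (0.33, adjusted p = 0.084).

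The summed signal of the 9 listed neuronal genes, 3 of which passed the filter, was between 1034 and 1814 in CreER arrays and between 1618 and 2327 in no Cre arrays, ranges that overlapped. The 3 that passed were Map2, Syt1 and Gad1. Tubb3 was among those that did not, with signals between 10.7 and 18.7 in CreER arrays and between 11.4 and 33.7 in no Cre arrays. The oligodendrocyte list, of which Cnp, Olig2 and Sox10 passed, summed to between 3593 and 5271 in CreER arrays and between 4175 and 5333 in no Cre arrays. The neural stem cell list summed to between 16929 and 24325 in CreER arrays and between 20232 and 28647 in no Cre arrays. Their part in the genotype differences was not tested.

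With time Hsp90b1 and Pdia4 rose and Herpud1 fell in CreER cultures, as a mean over both treatments. As deposited 2 genes were higher and 1 was lower at 60 h than at 36 h (5.28% of all genes were called), and after quantile normalization 6 were higher and 1 was lower (22.8%). In cultures without Cre 0 were called as deposited (4.1%), and 0 were higher and 2 lower after quantile normalization (27.1%). Those were Hspa5 at -0.19 (adjusted p = 0.00913) and Pdia6 at -0.15 (adjusted p = 0.00939). As deposited they were -0.27 for both (adjusted p = 0.107 and 0.158), and with the actin ratio given below as a covariate they turned to 0.14 for Hspa5 (adjusted p = 0.722) and 0.09 for Pdia6 (adjusted p = 0.842). The second Hspa5 probe set was lower as deposited, with -0.54 (SE 0.13, adjusted p = 0.00049). The difference of the change with time between the genotypes had 3 genes higher and 1 lower as deposited (2.14%), and 6 higher and 1 lower after quantile normalization (17.2%). The median difference of the 10 genes was 0.45 as deposited and 0.35 after quantile normalization, beside 0.05 and 0.02 over all genes.

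Herpud1 had between 148 and 310 in the 4 CreER arrays at 60 h and between 381 and 508 in the 4 CreER arrays at 36 h. The times did not overlap, and the change was -0.94 (SE 0.13, adjusted p = 2.44e-09) as deposited and -0.89 (adjusted p = 0.00281) after quantile normalization, one of the lowest changes of all tested genes (percentile 0.0525 as deposited). In cultures without Cre, Herpud1 at 60 h was 480 and 457 after 4OHT and 225 and 285 with vehicle, and at 36 h it was 328 and 180 after 4OHT and 295 and 419 with vehicle. In these cultures the 4OHT arrays at 60 h lay above the vehicle arrays, but the times overlapped, with a change of 0.23 (SE 0.13, adjusted p = 0.302). The difference between genotypes was -1.16 (SE 0.19, adjusted p = 5.05e-07), and both this call and that in CreER cultures held without each array in turn. The second probe set fell by 0.55 in CreER cultures (SE 0.14, adjusted p = 0.00399), and its difference between genotypes was -0.47 (SE 0.20, adjusted p = 0.227), which was not called.

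Hsp90b1 rose by 0.35 in CreER cultures as deposited (SE 0.11, adjusted p = 0.0474) and by 0.42 after quantile normalization (adjusted p = 1.1e-05). Pdia4 rose by 0.45 (SE 0.13, adjusted p = 0.0172) as deposited and by 0.53 (adjusted p = 0.000737) after quantile normalization. The vehicle arrays carried most of both changes. Under 4OHT, Hsp90b1 was 1938 and 2543 at 60 h and 1855 and 2017 at 36 h, and Pdia4 was 791 and 707 at 60 h and 665 and 814 at 36 h. Those values overlapped between the times for both genes. The Pdia4 calls with time, after 4OHT at 60 h and between genotypes under vehicle all draw on the same 2 CreER vehicle arrays at 60 h. They are therefore not separate observations. As deposited the call of Hsp90b1 was lost without 6 of the 8 arrays and that of Pdia4 without 4 of them. After quantile normalization Hspa5 (0.23), Calr (0.18), Pdia3 (0.34) and Pdia6 (0.36) were also higher at 60 h in CreER cultures.

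Between the genotypes, the change with time differed as deposited for Hsp90b1 by 0.57 (SE 0.16, adjusted p = 0.0273), for Pdia4 by 0.63 (SE 0.19, adjusted p = 0.0444) and for Pdia6 by 0.56 (SE 0.17, adjusted p = 0.0434). The calls were lost as deposited without 10, 13 and 13 of the 16 arrays. After quantile normalization those 3 and Hspa5, Calr and Pdia3 were called, and each of these 6 calls held without every array in turn. The second Hsp90b1 probe set differed by 0.68 (SE 0.18, adjusted p = 0.0057).

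RNA quality moved with time in the cultures without Cre. The 5′ to 3′ signal ratio of the actin control probe sets, which falls as RNA degrades, was 0.825 ± 0.0548 at 60 h and 0.614 ± 0.0534 at 36 h in cultures without Cre (SD, n = 4 arrays each), and 0.826 ± 0.0729 at 60 h and 0.776 ± 0.0454 at 36 h in CreER cultures (SD, n = 4 arrays each). With that ratio as a covariate, the difference between genotypes was called for 1 of the 10 genes, Herpud1 (-1.02, adjusted p = 0.0319), while those of Hsp90b1 (0.31, adjusted p = 0.501), Pdia4 (0.41, adjusted p = 0.462) and Pdia6 (0.28, adjusted p = 0.552) were not. In CreER cultures 5 genes were called with the covariate: Hsp90b1 (0.43), Pdia3 (0.40), Pdia4 (0.52) and Pdia6 (0.37) were higher at 60 h and Herpud1 (-0.98) was lower. In cultures without Cre, 8 of the 10 changes with time turned sign with the covariate, among them Hspa5 (0.14) and Pdia6 (0.09). None was called, with a lowest adjusted p of 0.539 in limma. The median change over all genes moved too, from -0.11 to 0.30. The ratio in these arrays was between 0.548 and 0.666 at 36 h and between 0.773 and 0.891 at 60 h. As these ranges do not overlap, the ratio and time can hardly be told apart there.

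**Figure D3:**
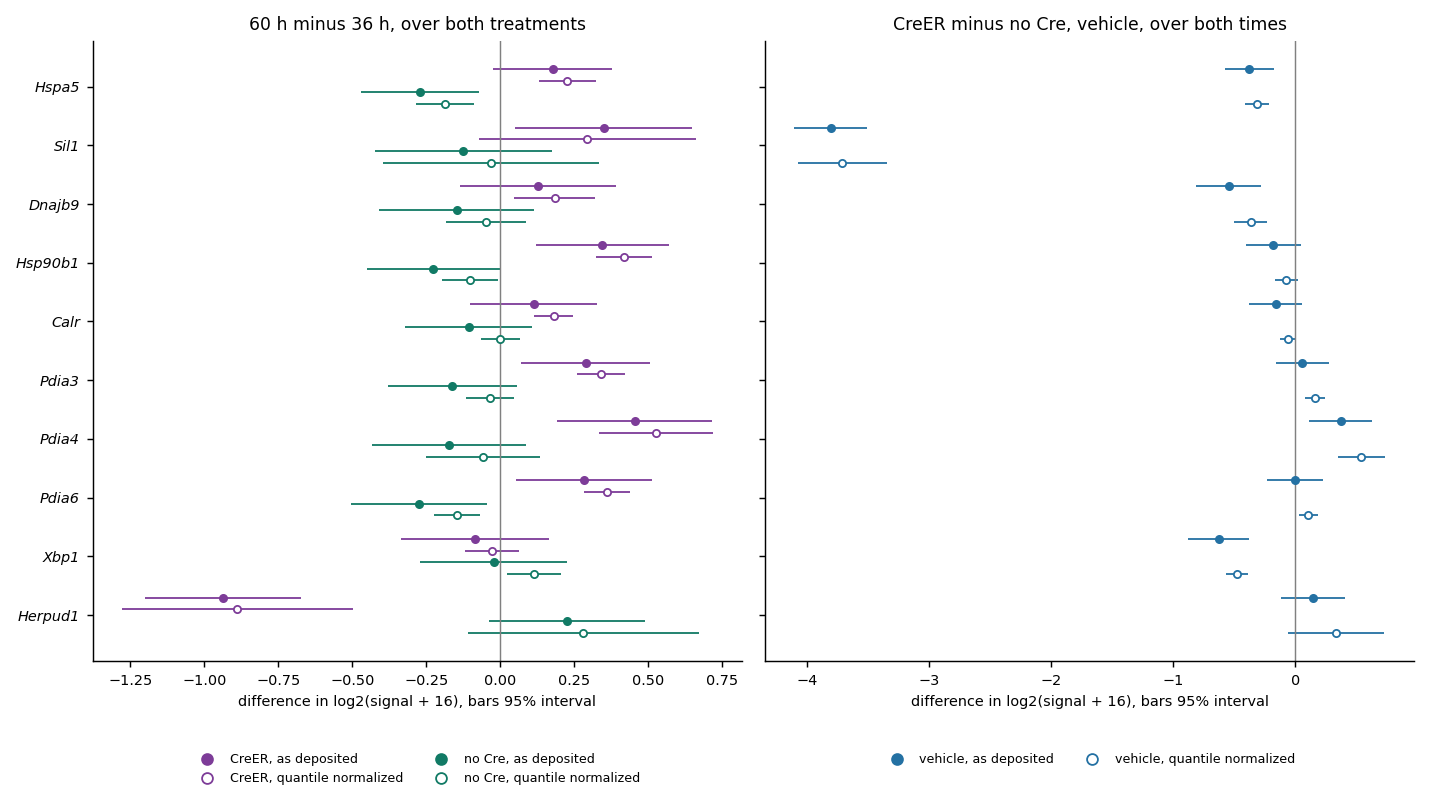
Difference in log2(signal + 16) for each gene, 60 h minus 36 h in CreER and no Cre cultures on the left, and CreER minus no Cre under vehicle on the right. Filled points are values as deposited, open points are quantile normalized, and bars are 95% intervals from limma. Hsp90b1, Pdia3, Pdia4 and Pdia6 lie to the right of 0 in CreER cultures and to the left in no Cre cultures, Herpud1 lies the other way, and Sil1 is far to the left between genotypes, where its CreER values lie below the filter's signal.

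The order of the 8 group means ran differently from gene to gene. For Hspa5 the 4 CreER groups were lowest and the 4 no Cre groups highest, from 3052 in CreER 4OHT at 36 h to 6312 in no Cre vehicle at 36 h, a ratio of 2.07. Of the 7 pairs of neighbours in that order, 3 did not overlap. For Xbp1 the CreER groups were again the lowest 4, from 955 in CreER vehicle at 60 h to 1695 in no Cre vehicle at 36 h, a ratio of 1.77 with 3 of 7 neighbour pairs apart. For Pdia4 the single neighbour pair apart was the top one, CreER vehicle at 60 h (1303) over no Cre vehicle at 36 h (815). Hsp90b1 (ratio 1.75) and Herpud1 (2.45) had 2 neighbour pairs apart. The highest Sil1 group was at least 10.5-fold above the CreER groups, which were all below the filter's signal. Dnajb9 (1.69) and Pdia6 (1.42) had 1 neighbour pair apart, and Calr (1.37) and Pdia3 (1.36) had 0. These counts were not set beside those of all genes and carry no test.

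Over the 8 group means after quantile normalization, the genes fell into patterns that can be described by Pearson's r. Hsp90b1 and Calr had r = 0.98, and Pdia3 had r = 0.92 with Pdia6 and 0.88 with Pdia4. Sil1 had r = 0.90 with Dnajb9, 0.86 with Xbp1 and 0.83 with Hspa5, and these 4 genes were all lower in CreER cultures. Pdia4 and Xbp1 ran opposite, with r = -0.78, and Herpud1 was negative against each of the other 9. The points share arrays, and genotype alone separates the groups, so these values describe 8 points and carry no test. All CreER values of Sil1 lie below the filter's signal, so its r mainly reflects the split between the genotypes. Among all 7618 other genes, the patterns most like that of Hspa5 were those of Zfp280d (r = 0.98), Zmynd11 (0.97), B4galt4 (0.97), Prkd3 (0.97) and Usp47 (0.97). Those most like Xbp1 were Retreg2 (0.98), Arpc1a (0.97), Rnf10 (0.97), 2510039O18Rik (0.97) and Pde1c (0.97). Of the other members Sil1 ranked highest against Hspa5, at 593 of 7618.

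**Figure D4:**
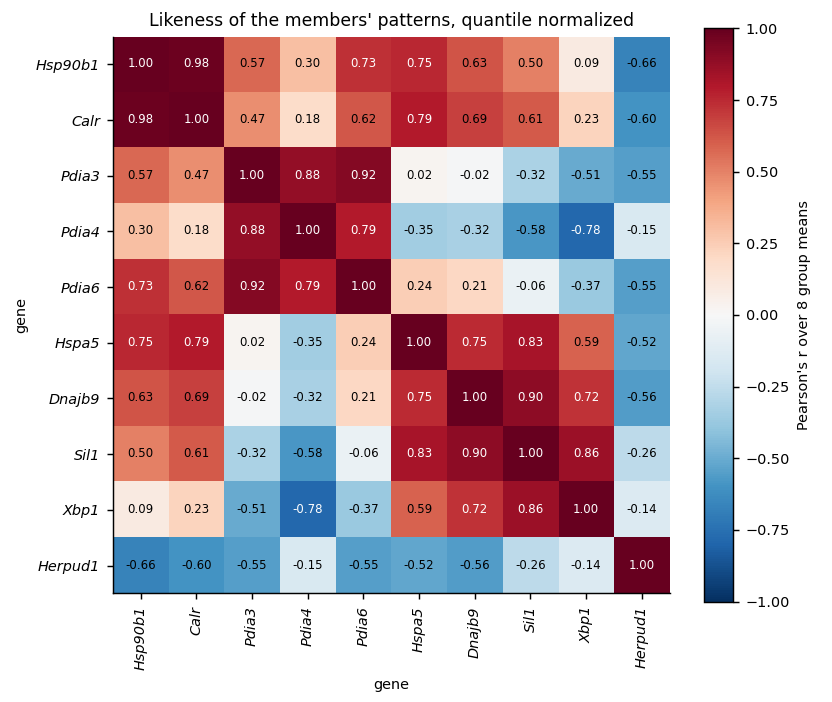
Pearson's r between the 10 genes over the 8 group means of log2(signal + 16) after quantile normalization, on a scale of -1 to 1. Hsp90b1 with Calr and the 3 disulfide isomerases form blocks of high r, Hspa5, Dnajb9, Sil1 and Xbp1 have positive r with each other, between 0.59 and 0.90, and Herpud1 is negative throughout.

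Further genes of the same machinery were counted by role, 56 of them past the filter. After 4OHT in CreER cultures over both times, 2 rose and 2 fell as deposited, where 12.4% of all genes were called, and 7 rose and 12 fell after quantile normalization, where 38.8% were. Both shares of the list were below those of all genes. The median change was -0.09 as deposited and -0.02 after quantile normalization, beside -0.07 and 0.00 over all genes. By role and after quantile normalization, of 15 other chaperones and co-chaperones 0 rose and 6 fell, of 9 other oxidoreductases 0 rose and 2 fell, of 5 genes of glycan processing 0 rose and 2 fell, and of 8 genes of translocation 0 rose and 2 fell. Of 12 genes of ER-associated degradation 4 rose and 0 fell, and of 7 sensors, proteases and transducers 3 rose and 0 fell. These counts are to be read against the 38.8% of all genes called.

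The genes with the smallest p in that comparison were named from each side. Ero1a, the oxidase that recharges the disulfide isomerases, fell by 0.70 (SE 0.13, adjusted p = 3.39e-06), and Sdf2l1, a stress-induced partner of Hspa5, fell by 0.37 (SE 0.13, adjusted p = 0.0438). Creb3l1, a membrane-bound transcription factor of the Atf6 type, rose by 0.57 (SE 0.17, adjusted p = 0.0092), and Edem2, a mannosidase of ER-associated degradation, rose by 0.38 (SE 0.14, adjusted p = 0.0438). Between CreER and no Cre under vehicle, 3 of the 56 were higher and 16 lower as deposited, and 11 were higher and 18 lower after quantile normalization, where 34.5% and 55.3% of all genes were called. The counts are near those shares.

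A list of Perk and integrated stress response genes was counted in the same way. Perk activity was not measured, and whether Perk drove changes in these genes was not tested. Of the 11 genes past the filter, 6 rose and 0 fell after 4OHT in CreER cultures over both times as deposited, with a median change of 0.37. After quantile normalization 7 rose and 0 fell, beside the same 12.4% and 38.8% of all genes. Trib3, a pseudokinase induced by Atf4 and Ddit3, rose by 0.80 (SE 0.15, adjusted p = 1.13e-05), and Ddit3, the transcription factor CHOP, rose by 0.75 (SE 0.15, adjusted p = 1.86e-05). In cultures without Cre 1 of the 11 rose as deposited and 5 after quantile normalization, where 0.0656% and 0.814% of all genes were called. The difference of the response between the genotypes was called higher for 1 of the 11 as deposited (2.34% of all genes), and higher for 3 and lower for 1 after quantile normalization (19.2%).

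Chaperones outside the ER were counted to see whether the falls were limited to the ER. Of 17 cytosolic and mitochondrial chaperones 0 rose and 5 fell as deposited, with a median change of -0.18, and 0 rose and 11 fell after quantile normalization, with a median of -0.12, where 12.4% and 38.8% of all genes were called. Hspa4 fell by 0.52 (SE 0.13, adjusted p = 0.000888) and Tcp1, a subunit of the cytosolic chaperonin, by 0.39 (SE 0.10, adjusted p = 0.00265). The medians of the 10 ER genes and of the 17 chaperones outside the ER were -0.17 and -0.18 as deposited.

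**Figure D5:**
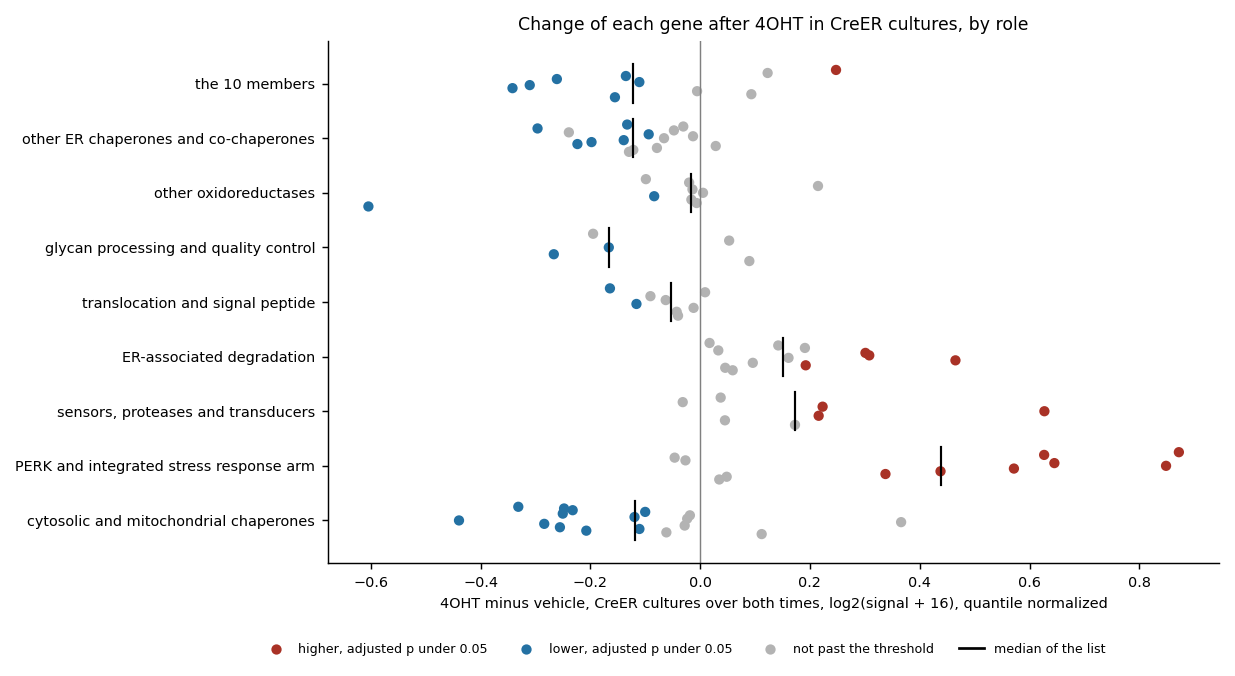
Change in log2(signal + 16) after 4OHT in CreER cultures over both times, quantile normalized, with a point for each gene past the filter in lists grouped by role and a bar for the median of the list. Red and blue points passed an adjusted p of 0.05 in limma. ER chaperones and chaperones outside the ER lie mostly to the left of 0. Genes of ER-associated degradation, transducers and the list of Perk and integrated stress response genes lie mostly to the right.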

How the data were processed

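Total RNA of 16 cultures was hybridised to 1 Affymetrix array each, in 8 groups of 2. The deposited intensity values are MAS5 signals, per the submitters' processing notes, whose version is not given in the sources used here, on a linear scale. Of 22690 probe sets, 64 were controls, 20380 had 1 gene symbol, 691 several and 1555 none, by the platform annotation, and 20351 matched RefSeq (GRCm38.p6) by Entrez identifier. Each gene was represented by its probe set of highest mean, which gave 12393 genes, and the 7619 above the 40 percentile of mean log2(signal + 16) were tested. One model of the 8 group means was fitted with limma 3.58.1 (R 4.3.3), with a mean-variance trend and Benjamini-Hochberg adjustment over all genes tested. The interaction terms came from the same fit, with 8 residual degrees of freedom. The prior degrees of freedom, which weigh the trend against a gene's own spread, were infinite for the values as deposited. There each gene's variance came from the shared mean-variance trend, and its own spread did not enter. After quantile normalization they were 6.84, so p-values as deposited and after quantile normalization rest on different variances. Precision is limited by how few arrays there are.

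The fit was repeated after median scaling and quantile normalization, with pseudocounts of 1 and 64, without the filter, without the trend, with the actin ratio as a covariate, with the replicate number as a block, on the compared arrays alone, and without each array in turn. Leaving out arrays after quantile normalization was added after seeing the data. Replicate numbers were not treated as pairs in the main fit. Over 28 pairs of groups the correlation of deviations as deposited ran between -0.12 and 0.31, above 0.1 in 6. Groups of the same genotype and time were not looked at apart, so pairing was not excluded. Genes were named by a rule: the 10 genes, from wider lists up to 4 genes of smallest p among those past the threshold, and by pattern the 5 genes most like Hspa5 and Xbp1. The members and lists were chosen with earlier results of these data known. The fit was tested on simulated data. Figures and promoter searches used Python 3.11.15 with pandas 2.3.3 and matplotlib 3.10.9.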

Additional observations from a re-analysis of the deposited data

Results flagged for a closer look

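For 4 genes the change in signal with time differed between the genotypes by the interaction term of the limma fit on values as deposited. The change at 60 h minus 36 h, CreER minus no Cre, was 0.57 for Hsp90b1 (adjusted p = 0.0273), 0.63 for Pdia4 (adjusted p = 0.0444), 0.56 for Pdia6 (adjusted p = 0.0434) and -1.16 for Herpud1 (adjusted p = 5.05e-07). The actin 5′ to 3′ ratio of the no Cre arrays also differed between the times, and with it as a covariate the call of Herpud1 was kept and those of the other 3 genes were not.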

How the results depend on the processing

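Counts are of the 10 genes past an adjusted p of 0.05 in limma, out of 10. For the CreER response to 4OHT, both times pooled, 2 were called as deposited, 6 after median scaling, 7 after quantile normalization, and 1 without the filter, without the mean-variance trend or on the compared arrays alone. At 36 h the count was 1 as deposited, 2 after median scaling or quantile normalization, and 0 without the filter, without the trend or with the actin ratio as a covariate. At 60 h it was 2 as deposited, 4 after median scaling or with the actin ratio, 6 after quantile normalization, 1 without the filter and 0 on the compared arrays alone. For the difference of the response between genotypes it was 0 as deposited, 2 after median scaling, 3 after quantile normalization and 1 with the actin ratio, and for the difference between times 0, 1 after median scaling and 3 after quantile normalization. Between genotypes under vehicle Sil1 is left out, as its difference has no test. Of the other 9 genes 1 was higher and 3 were lower as deposited, and 3 were higher and 3 lower after median scaling or quantile normalization. With the actin ratio Pdia4 (0.51) and Xbp1 (-0.49) were called. Without each of the 8 arrays in turn as deposited, the calls of Hspa5, Dnajb9 and Xbp1 held, and that of Pdia4 held without 4. After quantile normalization the calls of Hspa5, Dnajb9, Pdia3, Pdia4 and Xbp1 held without each, and that of Pdia6 without 4. For time in CreER cultures the count was 3 as deposited, 5 after median scaling or with the actin ratio and 7 after quantile normalization. It was 1 without the filter or on the compared arrays alone. For time without Cre it was 0 as deposited, 6 after median scaling, 2 after quantile normalization and 1 on the compared arrays alone. For its difference between genotypes it was 4 as deposited, 8 after median scaling, 7 after quantile normalization, 2 without the trend, 0 without the filter, and 1 with the actin ratio or with the replicate block, which moved no other count by over 1.5 times. Without each array in turn the counts of the other comparisons, as deposited and then after quantile normalization, ran between 0 and 3 and between 5 and 7 (4OHT in CreER), 0 and 0 and 1 and 2 (36 h), 0 and 2 and 5 and 6 (60 h), 0 and 0 and 0 and 0 (no Cre), 0 and 0 and 2 and 4 (difference between genotypes), 0 and 0 and 0 and 2 (between times), 1 and 3 and 7 and 8 (time in CreER), 0 and 0 and 2 and 3 (time without Cre) and 1 and 6 and 7 and 8 (its difference). Sil1 is among the 10 genes in these counts. When the actin ratio was added to the fit, the sign turned in 8 of the 10 changes with time without Cre and in 9 of the other 90 values, none of them called with or without it on the deposited values. The change of Xbp1 with time without Cre was -0.02 as deposited and 0.11 after quantile normalization. Without each array in turn after quantile normalization it ran between 0.082 and 0.15 (without replicate 2 of no Cre 4OHT at 36 h). As deposited its lowest value without an array was -0.065 (without replicate 1 of no Cre 4OHT at 60 h). The causes of these moves were not tested.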

Other observations

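Because Sil1 differed so far between the genotypes, its neighbours on the chromosome were looked at, a choice made after its values were seen. Of 15 neighbours on each side, 17 passed the filter, and under vehicle 10 of these were lower and 1 was higher in CreER cultures as deposited, and 8 were lower and 2 higher after quantile normalization, where 34.5% and 55.3% of all genes were called. The median over all genes was -0.13 as deposited and 0.02 after quantile normalization. The values as deposited ran between -0.60 (Paip2, adjusted p = 2.83e-06) and 0.29 (Hspa9, adjusted p = 0.0424) on the log2 scale, and those 2 genes had -0.50 and 0.43 after quantile normalization.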
